A study of Mus musculus with 8 samples.

Results

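The genes of lipoprotein assembly and triglyceride synthesis were followed in the proximal large intestine of gnotobiotic mice. They were chosen by name and number 10 (Apob, Mttp, Sar1b, Apoa1, Apoa4, Apoc2, Apoc3, Mogat2, Dgat1 and Dgat2) of the 17041 genes in the deposited table. All 10 were found there, and 8 had a mean normalized value of at least 10 over the libraries and were tested, while Apoa4 and Apoc3 did not. The 8 libraries each came from 1 mouse. All mice were germ-free ApoE knockouts that received a bacterial community by gavage when 8 weeks old and were dissected when 26 weeks old. In the core group (3 mice) the community made no butyrate, and in the other group (5 mice) the core community was joined by the butyrate producer Roseburia intestinalis, abbreviated R. intestinalis below. Every mouse lacks Apoe, the ligand by which lipoprotein remnants are cleared, so the controls carry the same lipoprotein defect. The sources used here do not give diet, sex, cage or isolator. Mice of 1 group may therefore share an isolator, and the tests weigh only mouse-to-mouse spread.

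Absorptive cells of the gut rebuild triglyceride from fatty acids and monoacylglycerol and pack it around a single large protein, apolipoprotein B, to make chylomicrons. The acyltransferases MOGAT2, DGAT1 and DGAT2 make the triglyceride, the microsomal triglyceride transfer protein (Mttp) loads it onto apolipoprotein B in the endoplasmic reticulum, and the GTPase SAR1B builds the vesicles that carry the particle to the Golgi. The small apolipoproteins A1, A4, C2 and C3 coat the particle, and C2 and C3 respectively activate and inhibit lipoprotein lipase. The pathway is best known in the small intestine, and the large intestine absorbs little dietary fat.

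Marker genes were read beside the tissue label. All 10 colon epithelial markers (Car1, Slc26a3, Aqp8, Muc2 and others) were above 0 in every library. Their sums were 135002 to 343021 (core) and 182106 to 342930 (R. intestinalis). Most of each sum came from Muc2 (75618 to 243421) and Car1 (12235 to 109366), and Aqp8 ran from 47.42 to 2866. Of 10 small intestinal markers 9 were above 0 in every library (sums 8772 to 19160 and 10634 to 19104, respectively), as were 3 of 4 distal colon markers (59 to 599 and 12 to 886). Markers of more than 1 gut segment were thus above 0, so presence alone cannot settle the label. Most of the small intestinal sum came from Mep1a (5703 to 10519) and Fabp2 (1665 to 6700). Alpi was 21.29 to 295.6, Lct 0 to 6.35 and Sis 11.35 to 1370. Markers of position along the gut differed between libraries within each group. Hoxb13, a transcription factor of the distal colon, was 141.3, 438.7 and 25.26 in core replicates 1 to 3 and 247.1, 2.16, 393.8, 8.26 and 663.3 in R. intestinalis replicates 1 to 5. Slc10a2, the ileal bile acid transporter, was 49.05, 13.87 and 509.7 in core and 59.68, 817.8, 414, 949.2 and 80.53 in R. intestinalis libraries. Core replicate 3 and R. intestinalis replicates 2 and 4 combined the lowest Hoxb13 with the highest Slc10a2 values. R. intestinalis replicate 3 did not follow that pattern, as both Hoxb13 (393.8) and Slc10a2 (414) were high in it. Hepatocyte markers, which include other genes for plasma proteins, summed to between 698 and 864 in core and between 578 and 857 in R. intestinalis libraries. Of the 8 markers 6 were above 0 in every library. Most of the sum came from Tat (231.7 to 524.1), Ttr (46.37 to 207.1) and Cyp2e1 (34.78 to 406.1), whereas Alb, the main plasma protein of liver, was 10.23 to 46.6 and the fibrinogen gene Fgb 0 to 3.44. Libraries held an estimated 4607355 to 15356527 reads, so that 31 reads lay behind a normalized value of 50 in the shallowest and 109 in the deepest.

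None of the genes differed between the communities past the threshold. By limma, 0 of the 8 tested genes had an adjusted p below 0.05, as did 0 of all 13020 genes tested (0%), and with limma unadjusted p below 0.05 there were 1 of the 8 (Mogat2) and 1058 of 13020 (8.13%). The log2 difference, R. intestinalis minus core, was above 0 in 7 of the 8, against 49.6% of all genes tested, with a median of 0.40 against −0.003. It ran from −0.19 (Sar1b) to 1.26 (Mogat2), with Apob (0.07) and Apoc2 (0.08) near 0. Transcripts of Apoa1, Apoc2, Mogat2, Dgat1 and Dgat2 are rich in G and C (55.6% to 56.8%). After a correction for GC content 6 of the 8 were above 0, and the estimates ran from −0.16 (Apoc2) to 1.06 (Mogat2). Markers of smooth muscle, the contractile coat of the gut wall, were apart between the groups only in part. All 5 were above 0 in every library, and their sum was 113619 to 159425 in core and 76817 to 131409 with R. intestinalis, which overlap. For 2 of the 5, Acta2 (30940 to 39632, and 18076 to 26929) and Tagln (28294 to 38189, and 16473 to 27804), each core library was above each R. intestinalis library. For Myh11, Cnn1 and Des the groups overlapped, and Des was highest in R. intestinalis replicate 1 (18478). The part of smooth muscle in the estimates of the lipoprotein genes was not tested. In 0 of the 8 were the ranges of the groups apart, against 5.84% of all genes tested. In the authors' deposited table the posterior probability of a difference lay between 0 and 0.04 for the 10 genes, and 82 of 17041 genes (0.481%) reached 0.95.

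**Figure D1:**
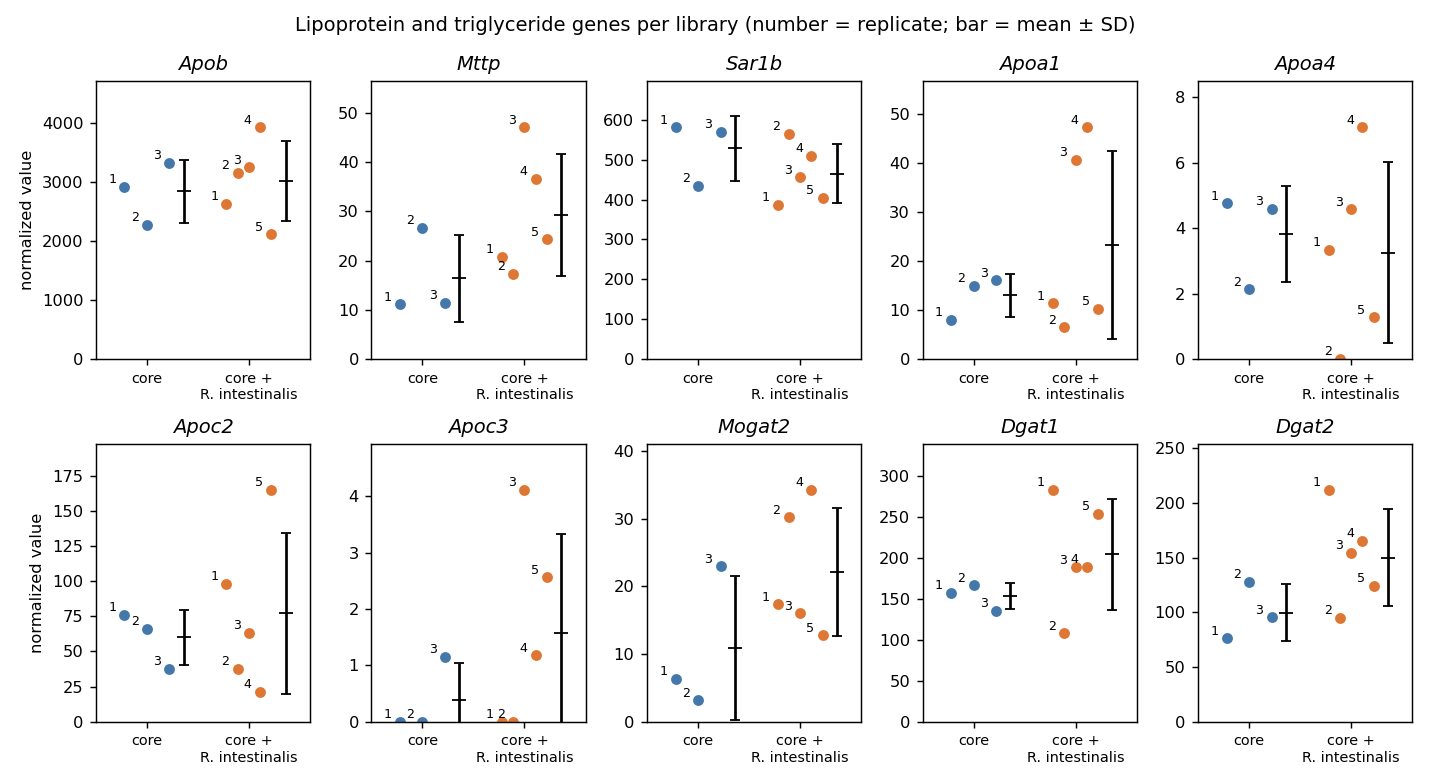
Normalized value of each of the 10 genes per library (points, numbered by replicate; vertical axis in the authors' normalized units, starting at 0), where bars give the mean and SD of 3 core and 5 R. intestinalis libraries. The groups overlap in every panel, and Apob lies between 2118 and 3931 while Apoc3 stays at or below 4.11.

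Levels were compared between genes per kilobase of the longest coding transcript (GENCODE M21), since the deposited values are not per length. Sar1b stood highest, at 440.1 ± 68.1 per kilobase in core and 386.7 ± 61.6 in R. intestinalis libraries (mean ± SD, n = 3 and n = 5, as in all that follows). Apob came next at 204.3 ± 38.1 and 216.6 ± 49.1, and was below Sar1b in 8 of 8 libraries. Dgat1 (80.98 ± 8.34 and 108.1 ± 35.8) and Apoc2 (82.56 ± 27.3 and 106 ± 78.4) did not differ beyond their spread, with Dgat1 the higher in 5 of 8 libraries. Dgat2 followed at 44.09 ± 11.5 and 66.33 ± 19.5, and was below Dgat1 in 8 of 8 libraries. Apoa1 (mean 18.7 over the 8 libraries), Mogat2 (10.04) and Mttp (6.153) lay under the median of 27.24 per kilobase over 15334 genes. Mogat2 exceeded Mttp in 6 of 8 libraries. Apoa4 (1.911) and Apoc3 (1.587) were lowest, and their order held in 5 of 8 libraries. Thus the most abundant transcripts of the set were the vesicle GTPase and the particle's scaffold, each above at least 86.1% of the genes. Apoa1 stood above 43.5% of the genes, Mogat2 above 34.6% and Mttp above 28.9%, while Apoa4 and Apoc3 stood above only 19% and 17.5%.

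Apob encodes the scaffold of chylomicrons and very-low-density lipoproteins. Its normalized value was 2925, 2282 and 3334 in core replicates 1 to 3 and 2630, 3159, 3253, 3931 and 2118 in R. intestinalis replicates 1 to 5. The lowest and the highest library both belonged to the R. intestinalis group, and the core values fell within its range. The means were 2847 ± 530 and 3018 ± 684, a log2 difference of 0.07 (SE 0.202, 95% interval −0.38 to 0.52, limma adjusted p = 0.894). The difference turned to −0.08 without core replicate 2 and to −0.03 without R. intestinalis replicate 4. Of the 4 libraries with the highest Apob (R. intestinalis replicate 4, core replicate 3, R. intestinalis replicates 3 and 2), all 4 also had the highest Slc10a2.

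The promoters of Apob and Apoa1, the most abundant apolipoprotein gene of the set and one of much lower level, are shown as the 250 bases before the RefSeq start site (GRCm38.p6, both on the plus strand, 5′ to 3′). Apob lies at chr12:7977427-7977676 and Apoa1 at chr9:46228380-46228629. Capitals mark a TATAAA match in the Apob window, which begins 60 bases before the start site.
Apob: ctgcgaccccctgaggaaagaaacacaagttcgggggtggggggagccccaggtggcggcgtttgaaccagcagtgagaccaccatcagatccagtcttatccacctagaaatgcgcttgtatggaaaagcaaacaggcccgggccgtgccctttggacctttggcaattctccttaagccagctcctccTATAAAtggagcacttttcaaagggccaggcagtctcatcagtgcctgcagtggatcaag
Apoa1: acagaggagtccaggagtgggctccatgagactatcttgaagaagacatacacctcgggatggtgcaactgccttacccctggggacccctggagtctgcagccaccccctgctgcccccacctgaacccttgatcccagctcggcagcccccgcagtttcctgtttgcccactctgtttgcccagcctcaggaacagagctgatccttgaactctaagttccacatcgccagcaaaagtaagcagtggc
The search covered 5 motifs on both strands, with no overlap between the matches found. TATAAA occurred in 12.4% of 32851 promoter windows of this length, CCAAT in 33.8%, TGACGT in 6.47%, CAAAGTCCA in 0.384% and the DR1 nuclear receptor site in 0.0335%. The Apoa1 window held a match to none of these letters. A match is a description of the letters in the window and not evidence of a bound factor.

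Mttp encodes the protein that transfers triglyceride onto apolipoprotein B. Its normalized value was 11.11, 26.61 and 11.48 in core and 20.7, 17.25, 47.05, 36.58 and 24.29 in R. intestinalis libraries. Core replicate 2 overlapped the R. intestinalis range, whereas core replicates 1 and 3 lay below all 5 of those libraries. The means were 16.4 ± 8.84 and 29.17 ± 12.4, a log2 difference of 0.81 (SE 0.407, 95% interval −0.09 to 1.71, limma adjusted p = 0.588). These values rest on few reads, from 7 estimated reads in core replicate 1 to 103 in R. intestinalis replicate 3, and Trmt10a overlaps Mttp on the opposite strand. The adjusted p was 0.0455 (log2 difference 1.54) with limma's library weights, which gave R. intestinalis replicate 3, the library with the highest Mttp, a weight of 7.98, and 0.469 (0.98) with weights but without that library. P4hb, the disulfide isomerase that forms the other subunit of the transfer protein, averaged 5518 ± 438 and 5591 ± 553.

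Sar1b, the GTPase of the export vesicle, had the narrowest range of the 10 genes. Its normalized value was 581, 434.3 and 570.5 in core and 387.3, 565, 455.9, 509.8 and 403.9 in R. intestinalis libraries. Core replicates 1 and 3 were above all 5 R. intestinalis libraries and core replicate 2 lay among them. The means were 528.6 ± 81.8 and 464.4 ± 73.9, a log2 difference of −0.19 (SE 0.166, 95% interval −0.56 to 0.18, limma adjusted p = 0.674). Its transcript is poor in G and C (42.8%), and after a correction for GC content the difference was −0.03. It was −0.32 without core replicate 2, −0.11 without core replicate 1 and −0.36 with Slc10a2 as a covariate. Its close relative Sar1a, which serves general secretion, averaged 1053 ± 154 and 889.2 ± 120.

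Apoa1, the main protein of high-density lipoprotein, was low and uneven. Its normalized value was 7.94, 14.9 and 16.07 in core and 11.35, 6.47, 40.66, 47.21 and 10.23 in R. intestinalis libraries. R. intestinalis replicates 3 and 4 stood above all the rest, and the other 3 libraries of that group lay within or below the core range. The means were 12.97 ± 4.4 and 23.18 ± 19.2, a log2 difference of 0.45 (SE 0.624, 95% interval −0.93 to 1.83, limma adjusted p = 0.780). Without R. intestinalis replicate 4 the difference was 0.10, without replicate 3 it was 0.15, and without core replicate 1 it was 0.16. It was larger, at 0.77, without R. intestinalis replicate 2, and 1.46 (limma adjusted p = 0.111) with library weights. The same pair of libraries had the highest Mttp values.

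Apoc3 and Apoa4 neighbour Apoa1 on chromosome 9 and were near the limit of detection. Apoa4, a chylomicron apolipoprotein, had values of 4.76, 2.13 and 4.59 in core and 3.34, 0, 4.57, 7.08 and 1.28 in R. intestinalis libraries, which together rest on 31 estimated reads. Apoc3, an inhibitor of lipoprotein lipase, was listed at 0 in core replicates 1 and 2 and in R. intestinalis replicates 1 and 2. Its other values were 1.15 in core replicate 3 and 4.11, 1.18 and 2.56 in R. intestinalis replicates 3 to 5, from 13 estimated reads in all, 9 of them in the deepest library. No fold is given for either gene. Apoa5, the next gene of the cluster, ran from 0 to 5.9.

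Apoc2, the activator of lipoprotein lipase, varied widely. Its normalized value was 76.19, 66 and 37.88 in core and 98.13, 37.71, 63.5, 21.24 and 164.9 in R. intestinalis libraries. The R. intestinalis libraries spanned the core range on both sides. The means were 60.02 ± 19.8 and 77.09 ± 57, a log2 difference of 0.08 (SE 0.564, 95% interval −1.17 to 1.33, limma adjusted p = 0.963). The difference was −0.27 without R. intestinalis replicate 5, −0.09 without its replicate 1, −0.21 without core replicate 3 and −0.16 after the GC correction. In the other direction it was 0.45 without R. intestinalis replicate 4, and 0.79 (limma adjusted p = 0.221) with Slc10a2 as a covariate. The 3 libraries with the lowest Apoc2 (R. intestinalis replicates 4 and 2, core replicate 3) were those with the lowest Hoxb13. Apoc2 shares a cluster on chromosome 7 with Apoe, the gene disrupted in all 8 mice. Apoe itself was 15.2 ± 4.92 and 20.33 ± 4.29, and its neighbours Apoc1 and Apoc4 were at most 7.31 and 8.68. A gene model of GENCODE M21, Gm44805, overlaps Apoc2 on the same strand. If the authors' annotation, which is not stated, held it, part of the Apoc2 reads may have been assigned elsewhere.

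Mogat2 makes diacylglycerol from monoacylglycerol, the route used for absorbed fat. Its normalized value was 6.35, 3.19 and 22.96 in core and 17.36, 30.19, 15.99, 34.22 and 12.78 in R. intestinalis libraries. Core replicates 1 and 2 lay below all other libraries, and core replicate 3 lay inside the R. intestinalis range. The means were 10.83 ± 10.6 and 22.11 ± 9.47, a log2 difference of 1.26 (SE 0.551, 95% interval 0.04 to 2.48, limma adjusted p = 0.588). It rested on 3 to 35 estimated reads per library. Mogat2 was highest in R. intestinalis replicates 4 and 2 and core replicate 3, which had the 3 highest Slc10a2 values, and lowest in core replicate 2, which had the lowest. The log2 difference was 0.54 (SE 0.377, limma adjusted p = 0.351) with Slc10a2 as a covariate and 1.09 (SE 0.401, limma adjusted p = 0.218) with Hoxb13 as a covariate. It was 1.96 without core replicate 3 and 0.70 without core replicate 2.

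Dgat1 and Dgat2, unrelated enzymes that both complete triglyceride synthesis, were moderately expressed. Dgat2 was 76.19, 127.7 and 95.28 in core and 211.7, 94.89, 154.4, 165.2 and 124 in R. intestinalis libraries. R. intestinalis replicates 1, 3 and 4 stood above the core range, and replicates 2 and 5 lay within it. The means were 99.74 ± 26.1 and 150 ± 44.1, a log2 difference of 0.57 (SE 0.268, 95% interval −0.03 to 1.16, limma adjusted p = 0.588). Dgat1 was 157.1, 166.1 and 135.5 in core and 282.4, 107.8, 188.2, 188.8 and 253.1 in R. intestinalis libraries. Here 4 of the 5 R. intestinalis libraries were above the core range and replicate 2 was below it. The means were 152.9 ± 15.7 and 204.1 ± 67.6, a log2 difference of 0.35 (SE 0.278, 95% interval −0.27 to 0.96, limma adjusted p = 0.652). The Dgat1 difference was 0.21 without R. intestinalis replicate 1, 0.56 without replicate 2 and 0.63 with Slc10a2 as a covariate.

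Both Dgat genes were highest in R. intestinalis replicate 1, and base composition moved with that library. Across 2760 genes with transcripts above 55% GC and 2777 below 45%, the median log2 deviation of the GC-rich minus that of the GC-poor genes was 0.942 in this library and between −0.5 and 0.335 in the other 7. Dgat1 and Dgat2 transcripts have 56.5% and 56.3% GC. After the GC correction their log2 differences were 0.10 (SE 0.179, limma adjusted p = 0.859) and 0.33 (SE 0.183, limma adjusted p = 0.586). Mogat2 (55.6% GC) was then at 1.06 and Mttp (45.9% GC) at 0.91, with limma adjusted p of 0.593 and 0.559. Dgat2 is also abundant in adipocytes. All 10 adipocyte markers were in the table and 9 were above 0 in every library, with Lep at 0 in R. intestinalis replicates 1 and 5. Their sums spanned 2063 to 4771 (core) and 612 to 2824 (R. intestinalis). By mean, Car3, Cfd and Fabp4 were the largest of them in both groups. Only Plin1 (3.267 ± 0.15 and 4.908 ± 3.45) and Lipe (27.7 ± 5.04 and 32.4 ± 7.52) had higher means with R. intestinalis. Core replicate 1 had the highest adipocyte sum and the lowest Dgat2. R. intestinalis replicate 1 had the highest Dgat2 beside an adipocyte sum that only replicate 5 undercut. Replicate 4 of that group went the other way. Its adipocyte sum (2824) was below only core replicate 1, and its Dgat2 (165.2) was below only R. intestinalis replicate 1. The part of fat tissue in the Dgat2 values was not tested.

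**Figure D2:**
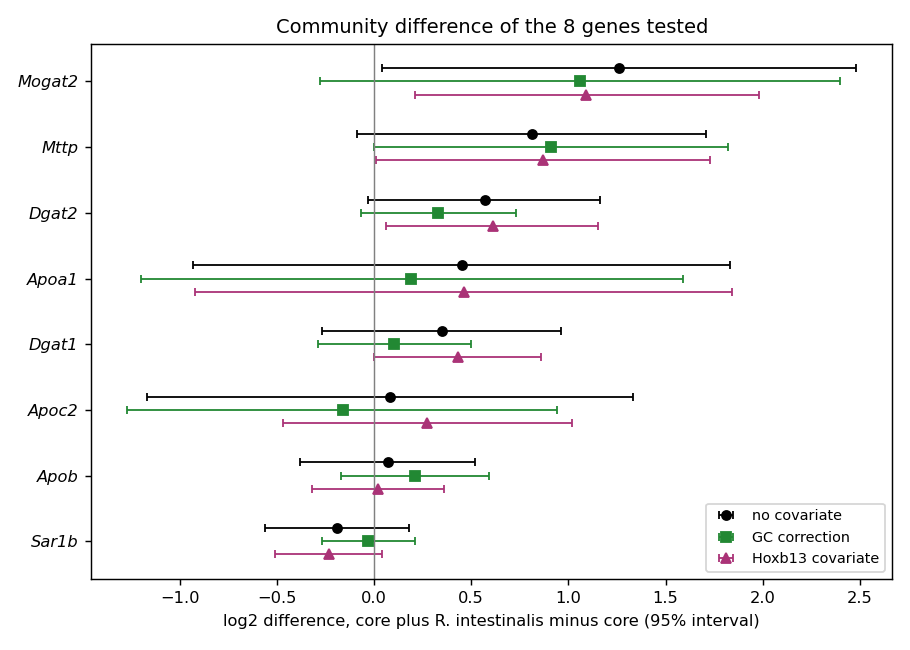
Log2 difference, core plus R. intestinalis (n = 5) minus core (n = 3), of the 8 tested genes (rows) with 95% intervals, from limma without a covariate (circles), after a GC correction (squares) and with Hoxb13 as a covariate (triangles). Mogat2 (1.26) and Mttp (0.81) have the highest estimates, Sar1b (−0.19) the lowest, and no gene passed the adjusted threshold in any of the 3 fits.

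The 8 tested genes did not share 1 order of libraries. Their mean centred log2 value was −0.39, −0.26 and −0.15 in core replicates 1 to 3 and 0.18, −0.23, 0.39, 0.38 and 0.08 in R. intestinalis replicates 1 to 5, so R. intestinalis replicate 2 lay within the core range. Apob, Apoa1 and Mogat2 peaked in R. intestinalis replicate 4. That library was next to the highest for Mttp and Dgat2, and the lowest for Apoc2. Mttp peaked in R. intestinalis replicate 3, Dgat1 and Dgat2 in replicate 1, Apoc2 in replicate 5, and Sar1b in core replicate 1. The range was widest for Mogat2 (highest over lowest library 10.7), Apoc2 (7.76) and Apoa1 (7.3) and narrowest for Sar1b (1.5) and Apob (1.86). Within groups the coefficient of variation was 67.8% for Apoc2, where counting error alone gives about 13.8%, and 55.2% for Mogat2, where it gives about 29.5%. With Hoxb13 as a covariate the limma adjusted p was 0.268 for Mttp, 0.239 for Dgat2 and 0.272 for Dgat1. The shift was not particular to these genes. Over all genes tested, the smallest limma adjusted p was then 0.197 in place of 0.503. A limma unadjusted p below 0.05 was found for 2400 genes in place of 1058. With Slc10a2 as a covariate the smallest limma adjusted p was 0.0957, and 3765 genes had a limma unadjusted p below 0.05. Fewer cells of a type and less RNA per cell cannot be told apart in these tissue pieces.

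**Figure D3:**
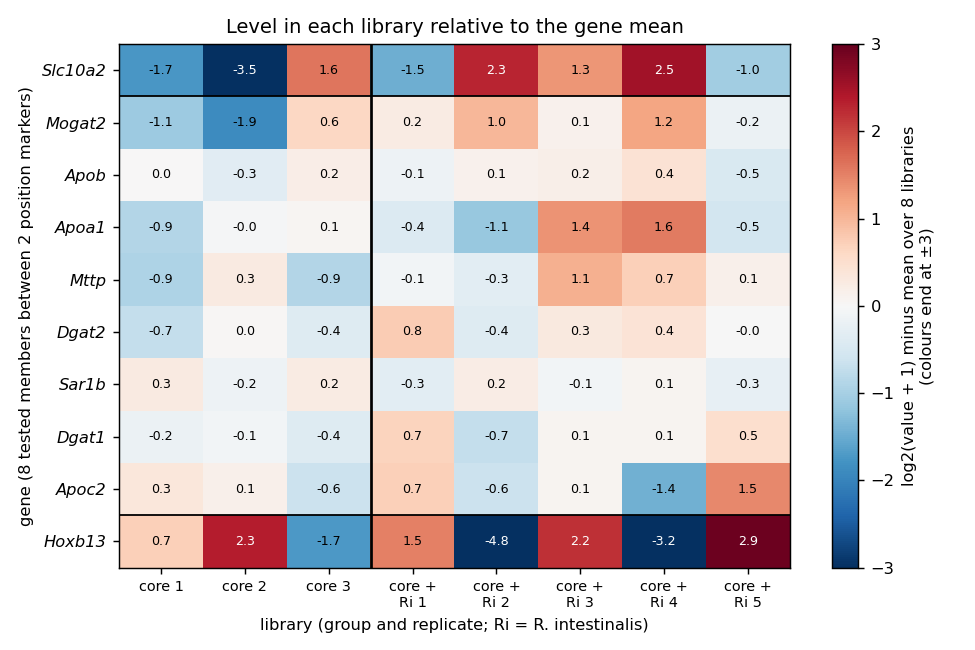
Log2(value + 1) minus the gene's mean over the 8 libraries, for the 8 tested genes between the position markers Slc10a2 (top) and Hoxb13 (bottom), with libraries in columns and a line between core (left) and core plus R. intestinalis (right). Mogat2 is high where Slc10a2 is highest (core 3, R. intestinalis 2 and 4), Apoc2 is low in those libraries, and Apoa1 and Mttp are high in R. intestinalis 3 and 4.

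Among 9602 genes with a mean of at least 50, predicted gene models, Riken clones and the 10 genes themselves left out, the 5 whose values over the 8 libraries were most like the mean profile of the tested genes were Abcb10 (Pearson r = 0.947), Sema6d (0.920), Tex261 (0.915), Rdh10 (0.914) and Cltb (0.912). These coefficients describe 8 libraries of 2 groups and were picked as the highest of many. The libraries share the differences in depth, base composition and position markers given above. Abcb10, a mitochondrial transporter, was 98.41, 95.8 and 119.4 in core and 150.1, 105.7, 150.2, 157 and 118.9 in R. intestinalis libraries.

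Genes that work around these 10 were read as 6 lists, and 0 of their tested members passed the threshold over all genes tested. The limma adjusted p was between 0.588 and 0.710 for the 24 genes named by rule, up to 4 per list. The rule took the smallest p, which favours genes whose groups do not overlap. The glycerol-3-phosphate route, which makes triglyceride and phospholipid from glycerol phosphate, had 10 of 15 members above 0 and a median of 0.14. In 1 of the 15 the groups were apart (lower with R. intestinalis), against 5.84% of all genes tested. Its smallest p-values belonged to Lpin2, a phosphatidate phosphatase (312.9 ± 129 in core and 470.2 ± 119 in R. intestinalis libraries), Lpin3, Agpat1 and Agpat2. Agpat1, an acyltransferase, averaged 186.6 ± 78 and 344.5 ± 163, and Agpat2 257.1 ± 51.7 and 342.9 ± 84.8. Lpin3 was 382.8 in R. intestinalis replicate 1 and 93.65 to 195.6 in the other 7 libraries.

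Genes of lipidation and vesicle export in the endoplasmic reticulum had 9 of 20 members above 0 and a median of −0.01. Sec16b, which organizes the exit sites of the endoplasmic reticulum, averaged 255.1 ± 35.2 and 364.7 ± 70.3 (log2 difference 0.50, SE 0.191). Preb, the exchange factor that loads SAR1 with GTP, averaged 268.6 ± 23.6 and 368 ± 101. Sec31a, of the outer vesicle coat, was 2660 in R. intestinalis replicate 1 and 928.6 to 1507 elsewhere.

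Other apolipoproteins and their plasma partners had 8 of 15 tested members above 0 and a median of 0.15, and 7 of the 22 listed genes were under the limit of the test. Apod, a lipocalin carried on lipoproteins, was 215.6, 179.8 and 178.9 in core and 114.2, 167.3, 134.9, 101 and 106.5 in R. intestinalis libraries. The groups were apart for Apod, 1 of the 15 tested members, against 5.84% of all genes tested. The log2 difference of Apod was −0.63 (SE 0.195, limma adjusted p = 0.588). Lrp1, an endocytic receptor for lipoprotein remnants, was 855.8 in R. intestinalis replicate 1 and 314.3 to 427.2 in the other 7 libraries. Lpl, lipoprotein lipase, averaged 482 ± 150 and 315.4 ± 224, and Gpihbp1, its anchor on capillary cells, 45.12 ± 8.56 and 31.16 ± 8.78. Lpl followed the adipocyte markers in its extremes, with 706.1 in R. intestinalis replicate 4 and 627.8 in core replicate 1, which were among the 3 libraries with the highest adipocyte sums, and their part in the Lpl values was not tested.

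Lipid droplet and lipolysis genes had 7 of 13 tested members above 0 and a median of 0.06. Pnpla2, adipose triglyceride lipase, was 214.3, 468.4 and 450 in core and 1523, 503.6, 814.5, 453.2 and 631.9 in R. intestinalis libraries. Its log2 difference was 0.99 (SE 0.389, limma adjusted p = 0.588). Lipa, lysosomal acid lipase, averaged 330.1 ± 28.6 and 417.2 ± 57.5. The droplet coat genes Plin3 (381.1 ± 80 and 482.3 ± 48.7) and Plin2 (927.2 ± 80.9 and 771.6 ± 141) had estimates of opposite sign, 0.36 and −0.28.

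Fatty acid uptake and binding genes had 6 of 12 members above 0 and a median of 0.03. Slc27a4, a fatty acid transport protein of enterocytes, was 184.1, 218.2 and 184.8 in core and 543.5, 238.3, 285.3, 286.8 and 318.3 in R. intestinalis libraries. The groups were apart for Slc27a4, 1 of the 12 members, against 5.84% of all genes tested. The log2 difference of Slc27a4 was 0.71 (SE 0.239, limma adjusted p = 0.588), and 0.46 (SE 0.132) after the GC correction. The fatty acid carriers Fabp4 (721 ± 288 and 384 ± 234) and Cd36 (385.7 ± 207 and 200.1 ± 130), both abundant in fat, had estimates below 0, and the part of fat tissue in them was not tested. Fabp4 is itself one of the 10 adipocyte markers. The other 9 summed to 1618 to 3752 in core and 376 to 2040 with R. intestinalis. Slc27a1, a relative of Slc27a4, had an estimate of 0.31 (SE 0.330), which turned to −0.02 (SE 0.234) after the GC correction.

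Transcription regulators of apolipoprotein and absorption genes had 15 of 18 tested members above 0 and a median of 0.27, which was 0.12 after the GC correction. Creb3l3, an intestinal and hepatic activator of apolipoprotein genes, was 11.11, 12.77 and 28.7 in core and 74.78, 19.41, 51.16, 29.5 and 25.56 in R. intestinalis libraries. Its log2 difference was 1.10 (SE 0.465, limma adjusted p = 0.588). Nr1h3, the oxysterol receptor LXR alpha, averaged 158.2 ± 10.6 and 188.7 ± 22.5 (log2 difference 0.25, SE 0.153), and its estimate turned to −0.04 (SE 0.231) after the GC correction. Srebf1 and Ppard, regulators of lipid synthesis and oxidation, averaged 76.5 ± 16.8 and 125.2 ± 60.5, and 149.9 ± 38.9 and 268.2 ± 120. Of the 24 genes named from the lists 17 had estimates above 0, and 12 of those 17 were highest in R. intestinalis replicate 1, the library with the GC tilt of 0.942. After the GC correction 2 of the 17 (Slc27a1 and Nr1h3) were below 0, and 6 more were smaller by over 1.5 times. These 6 were Agpat2 (0.40 to 0.10), Lrp1 (0.37 to 0.07), Agpat1 (0.81 to 0.48), Srebf1 (0.62 to 0.31), Ppard (0.72 to 0.37) and Slc27a4.

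**Figure D4:**
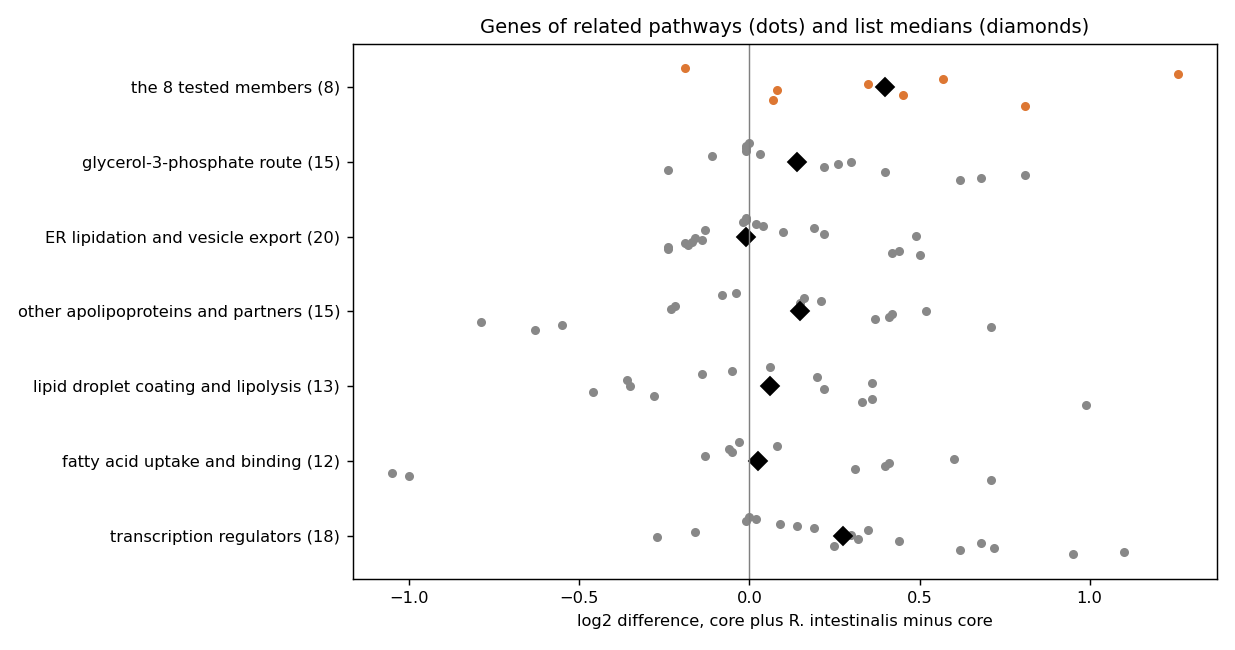
Log2 difference, core plus R. intestinalis minus core, of single genes (dots) and list medians (diamonds) for the 8 tested genes and 6 related lists, with the number of genes tested in parentheses. The medians, without a GC correction, lie between −0.01 (endoplasmic reticulum export) and 0.40 (the 8 tested genes), and no dot passed the adjusted threshold.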

How the data were processed

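Stranded mRNA libraries (Illumina TruSeq) of 8 mice were used, 1 per mouse, with groups and replicate numbers taken from the labels. Core libraries are numbered from 3 to 5 in their sample names, and judging by its title the table may omit 1 core library, which was not analysed here. Bowtie2, RSEM 1.2.23 and mm9 appear in the submitters' processing notes, which give them no roles. The annotation, gene filter, strand setting and the source of the posterior probabilities are not stated in the labels or headers used here. Per the file headers and the values, the authors deposited 1 normalized expression signal per gene and library, a posterior probability of differential expression (a score), and a raw and a posterior fold change (a ratio, R. intestinalis to core). Recomputed from the signal, that raw ratio came within 2% or 0.01 in 100% of the 12936 genes whose core mean reached 10. Each library's low values sat near multiples of 1 step (79.5% to 84.2% of those under 30, tolerance 0.05). The step was read as 1 read, and reads are called estimated because not all values were whole.

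Fold changes are on the log2(value + 1) scale, where low genes change less than on the raw scale. Genes averaging 10 or more were tested with limma 3.58.1 in R 4.3.3 (mean-variance trend, Benjamini-Hochberg over all 13020 genes, threshold 0.05, intervals of 95%). Transcript length and GC content came from the longest coding transcript in GENCODE M21 and matched 90.4% of genes tested by symbol; promoters came from a table of RefSeq start sites (GRCm38.p6), matched here for 6 of the 10 genes, and only the 250 bases before the start site were searched. The genes, lists, naming rule and tests were chosen with earlier results of these data known, and P4hb, the single marker genes of other cell types and the chromosomal neighbours were named after their values were seen. The rule named all 10 genes, Apoe, up to 4 genes per list with the smallest p (genes not reported here left out), and 5 genes of most similar profile. Alternatives changed the pseudocount (0.5 or 5), the filter (none, or 50), the scaling (trimmed mean of M values or quantile), the libraries (each omitted once), the block (replicate number), the weights (per library), the trend (none), the covariate (Hoxb13) and the cutoff on the authors' probability (0.9). Chosen after seeing the data were the GC correction (lowess, span 0.3), Slc10a2 as a covariate, a block built from sample names, and weights without the library of highest weight.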

Additional observations from a re-analysis of the deposited data

Results flagged for a closer look

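In 8 of the 39 genes checked, 1 of the 5 R. intestinalis libraries stood apart from the other 4. The gap was larger than Dixon's 95% critical value, 0.71 of the group's range. For independent, normally distributed values chance gives such a gap for about 1 group in 20. Raw values of chosen genes from shared libraries were used here, and the rate over all genes was not computed, so no excess is claimed. Replicate 1 was the library apart in 6 of the 8 genes. Its values, against the nearest other library of the group, were 382.8 against 195.6 for Lpin3, 2660 against 1507 for Sec31a, 855.8 against 427.2 for Lrp1, 543.5 against 318.3 for Slc27a4, 230.3 against 118.9 for Srebf1 and 295.6 against 101 for Alpi, intestinal alkaline phosphatase. In replicate 4, Lpl was 706.1 against 265.9 and Fabp4 784.8 against 368.2. None of the 10 lipoprotein and triglyceride genes was among the 8.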

How the results depend on the processing

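The 22 alternatives left most results in place. All 8 tested genes stayed short of the adjusted threshold under each of them with 1 exception, Mttp with limma's library weights (log2 difference 1.54, adjusted p = 0.0455). With these weights 455 of all 13020 genes tested passed. Among them were 1 of the 8 tested genes (Mttp) and 3 genes of the related lists (Slc27a4 and Pnpla2 among them). The 6 lists had 12 to 20 tested genes each. Without R. intestinalis replicate 3 the weighted count was 0. The count over all genes ran from 0 to 1 with each library left out, the 1 being Rangrf without core replicate 1. The direction held for Mttp, Apoa1, Dgat1, Dgat2, Mogat2 and Sar1b under every alternative that gave a value. Apob turned to −0.08 without core replicate 2, −0.03 without R. intestinalis replicate 4 and −0.18 with Slc10a2 as a covariate (range with each library left out −0.08 to 0.19). Apoc2 turned to −0.21 without core replicate 3, to −0.09 and −0.27 without R. intestinalis replicates 1 and 5, to −0.16 after the GC correction and to −0.53 with weights and without R. intestinalis replicate 3 (range with each library left out −0.27 to 0.45). The cause was not tested. With a mean of at least 50, 5 of the genes were tested and 4 were above 0. With each library left out, the number of genes with groups apart ran from 0 to 2 of 8 (Mttp and Sar1b without core replicate 2, Mogat2 without core replicate 3, Dgat1 without R. intestinalis replicate 2). Under those 3 omissions the share of all genes tested with groups apart was 19.8%, 13.5% and 13%. With the replicate number as a block, 0 genes passed and 395 in place of 1058 had an unadjusted p below 0.05. Same-numbered libraries did not deviate together (correlations −0.115, −0.53 and −0.07), 0 of 3 core libraries correlated best with its own number, and the block changed no other call. The authors' calls numbered 82, and 105 at 0.9. Depth limits Mttp, Mogat2 and Apoa1, with 7, 3 and 5 estimated reads in their poorest libraries, and Apoa4 and Apoc3 could not be compared at this depth.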
